A study of Homo sapiens with 8 samples.

Results

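The G1/S cyclins and E2F factors are 10 genes that carry a cell from G1 into S phase: *CCND1*, *CCNE1*, *CCNE2*, *CDK2*, *CDC25A*, *E2F1*, *E2F2*, *E2F7*, *E2F8* and *RB1*. They were found by their symbols among 58201 probes for 43317 named entries on a human expression array, and 12 probes carried one of the 10 names. The series held 8 arrays of 2 colours. Mock RNA, from cells that had no transfection, was labelled with Cy3. RNA of the same human cancer cell line, transfected with 1 mature miRNA or 1 small interfering RNA (siRNA) by a lipid reagent, was labelled with Cy5 and hybridised to the same array.

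The groups were miR-139-5p (1 array in A498 and 1 in 786-O), miR-139-3p (1 array in each of the same lines), si-GINS1 (siRNAs si-GINS1_1 and si-GINS1_2, 1 array each, in MDA-MB-231) and, in HCT116, miR-490-5p and miR-490-3p with a single array apiece. A498 and 786-O come from renal cell carcinoma, HCT116 from colorectal cancer and MDA-MB-231 from breast cancer. The replicates of a miR-139 group were therefore cell lines, and the replicates of si-GINS1 were siRNAs. The fit pooled the spread of these groups, so the p-values measure that pooled spread between arrays and not the spread between separate cultures. No array analysed here held RNA of cells given a control oligonucleotide.

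D-type cyclins, the product of *CCND1* among them, activate CDK4 and CDK6 in response to growth signals, and these kinases begin to phosphorylate the retinoblastoma protein, the product of *RB1*. The phosphorylated protein releases the activating transcription factors E2F1 and E2F2, which raise transcription of *CCNE1*, *CCNE2*, *CDC25A* and many genes of DNA synthesis. Cyclin E with CDK2 phosphorylates the retinoblastoma protein further, and the phosphatase CDC25A removes inhibitory phosphates from CDK2. E2F7 and E2F8 are atypical E2F factors that repress E2F targets and are themselves transcribed from E2F-driven promoters.

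The mature strands that were transfected are shown because their first bases pair with targets. The capitals mark the seed, bases 2 to 8 counted from the 5′ end, and the sequences and positions are those of RefSeq on GRCh38.p14. The miR-139 strands come from the minus strand of chromosome 11 (miR-139-5p from 72615102 to 72615124, miR-139-3p from 72615066 to 72615088), and the miR-490 strands from the plus strand of chromosome 7 (miR-490-5p from 136903205 to 136903224, miR-490-3p from 136903242 to 136903263). No seed was shared between the 4 strands.
miR-139-5p: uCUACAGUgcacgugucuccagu
miR-139-3p: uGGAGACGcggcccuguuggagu
miR-490-5p: cCAUGGAUcuccaggugggu
miR-490-3p: cAACCUGGaggacuccaugcug

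Promoter windows are shown for *E2F1*, *E2F2* and *CDC25A*, which hold a word of the E2F binding motif just before the gene start. The same 3 members were at or above 1 with si-GINS1_1, and a link between the words and the values was not tested. The words searched on both strands were TTTCCCGC, TTTGGCGC, TTTCGCGC and TTTGCCGC, in promoters that ran from 250 bases before to 50 bases after the gene start. RefSeq promoters on GRCh38.p14 were at hand for 6 members (*CCNE1*, *CDC25A*, *E2F1*, *E2F2*, *E2F7* and *RB1*), and 3 of the 6 held a word, against 3.33% of all 27305 promoters in the table. Those of *CCNE1*, *E2F7* and *RB1* held none. *CCND1*, *CCNE2*, *CDK2* and *E2F8* had no promoter to search. The windows below are read along the gene, all on the minus strand, and capitals mark the words. *E2F1* (chr20:33686393-33686422) held 2 words that did not overlap, the first on the opposite strand, starting 33 and 20 bases before the gene start. The word started 42 bases before the start of *E2F2* (chr1:23531257-23531286) and 44 bases before that of *CDC25A* (chr3:48188443-48188472). A match describes the letters and does not show that a factor binds there.
E2F1: tttcGCGGCAAAaaggaTTTGGCGCgtaaa
E2F2: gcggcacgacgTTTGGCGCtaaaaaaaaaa
CDC25A: ggtggattccgTTTGGCGCcaactaggaaa

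*CCNE2* and *E2F7* each had a second, dimmer probe, and for counts the brightest probe stood for its gene. On hg19 the brightest probes of the cyclins lie on chromosome 19 from 30315106 to 30315165 (*CCNE1*), chromosome 8 from 95892618 to 95892677 (*CCNE2*) and chromosome 11 from 69468233 to 69468292 (*CCND1*). Those of *CDK2* and *E2F7* lie on chromosome 12, from 56365789 to 56365848 and from 77415520 to 77415579. Those of *CDC25A* (chromosome 3, 48199124 to 48199183), *E2F1* (chromosome 20, 32263989 to 32264048), *E2F2* (chromosome 1, 23832933 to 23832992), *E2F8* (chromosome 11, 19245675 to 19245734) and *RB1* (chromosome 13, 49055845 to 49055904) complete the set. The 10 brightest member probes were well above background in both channels on all 8 arrays, so every member entered every test. The second *CCNE2* probe was well above background in Cy3 on 2 arrays and the second *E2F7* probe on 6. Values are log2 ratios of transfected over mock signal, after background correction and normalization within each array, and a value of 1 is a doubling. Each array measured the RNA of a whole culture, so fewer cells in a phase of the cycle and less RNA per cell cannot be told apart.

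The labelled lines were checked against marker genes in the mock channel. Of 5 renal markers 4 were well above background in A498 and 4 in 786-O, *CA9* being the exception, against 1 in MDA-MB-231 (*PAX8*) and 2 in HCT116 (*PAX8* and *PAX2*). In HCT116 *EPCAM*, *CDX1* and the intestinal factor *CDX2* (7.70 on the normalized log2 scale) were well above background, and 3 of 6 colorectal markers were not. *EPCAM* and *CDX1* also passed in A498, 786-O and MDA-MB-231, so 2 of 6 colorectal markers passed in each of those lines. By detection on both mock channels *CDX2* alone set HCT116 apart, although the level of *EPCAM* was also highest there. In MDA-MB-231 4 of 6 breast markers were well above background, as in 786-O, and *PGR* and *KRT5* were not. The breast markers therefore did not set MDA-MB-231 apart from the renal lines. The siRNA target *GINS1*, which encodes a subunit of the replicative helicase, had log2 ratios of -1.31 with si-GINS1_1 and -1.92 with si-GINS1_2 and lay between -0.11 and 0.55 on the 6 other arrays.

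*CCND1* was the member that fell in the si-GINS1 group. Of the 9 others, 7 were above the mock with si-GINS1_1 and below it with si-GINS1_2, and *CCNE1* and *E2F7* were above it with both. *CCND1* lay at -1.44 with si-GINS1_1 and at -1.01 with si-GINS1_2, or 0.370 and 0.496 of the mock signal. Both siRNA arrays were lower than all 6 other arrays, which ran from -0.41 to 0.01. Its mean was -1.22 ± 0.30 (SD, n = 2), with an adjusted p of 0.0167 by limma over 27810 probes. It was thus 1 of 10 members called lower, against a background of 3.63% of all probes, and 0 of 10 were called higher, against 3.33%.

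The call on *CCND1* rested on the spread shared among groups. The limma adjusted p was 0.523 from a fit of the si-GINS1 arrays alone, 0.0557 with a robust prior and variance trend, and 0.0659 with the log ratio of the scanner software.

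The activating factors *E2F1* and *E2F2* stood on opposite sides of the mock with the siRNAs. *E2F2* lay at 1.33 with si-GINS1_1 and at -1.11 with si-GINS1_2. *E2F1* lay at 1.06 and -0.87 on the same arrays. No other array took either gene beyond 0.40 in size, and *E2F2* had the widest range of all members over the 8 arrays, 2.44. Their means over both siRNAs, 0.11 ± 1.72 for *E2F2* and 0.10 ± 1.37 for *E2F1* (SD, n = 2), were smaller than the spread between the siRNAs, with limma adjusted p-values of 0.926 and 0.920.

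Of the 10 members 3 (*CDC25A*, *E2F1*, *E2F2*) were at or above 1 with si-GINS1_1, against 0.876% of all probes, and 1 was at or below -1, against 1.85%. With si-GINS1_2 3 members (*CCND1*, *CCNE2*, *E2F2*) were at or below -1, against 1.15%, and 0 were at or above 1, against 0.517%. Under median centring 5 members were at or above 1 with si-GINS1_1 and 0 at or below -1 with either siRNA.

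*CDC25A*, the CDK2-activating phosphatase, lay at 1.57 with si-GINS1_1, the highest value of any member on any array, and at -0.09 with si-GINS1_2. It was above the mock with the first siRNA alone, and its mean of 0.74 ± 1.17 (SD, n = 2) had a limma adjusted p of 0.299. The E-type cyclins did not share a pattern. *CCNE1* lay at 0.52 and 0.23, above the mock with both siRNAs, with a mean of 0.37 ± 0.20 (SD, n = 2) and a limma adjusted p of 0.114. *CCNE2* lay at 0.59 with si-GINS1_1 and at -1.04 with si-GINS1_2 (limma adjusted p 0.762), while its second probe, well above background on few arrays, read 0.06 and -0.21.

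The atypical repressors also differed from each other. *E2F8* lay at 0.30 with si-GINS1_1 and at -0.88 with si-GINS1_2, with a mean of -0.29 ± 0.84 (SD, n = 2) and a limma adjusted p of 0.561. *E2F7* lay at 0.26 and 0.45, above the mock with both, and its second probe read 0.18 and 0.24. Neither *E2F7* probe passed the test, with limma adjusted p-values of 0.108 and 0.0906.

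With the main processing, *CDK2* and *RB1* stayed closest to the mock on the siRNA arrays. *CDK2*, the kinase partner of cyclin E, lay at 0.28 and -0.07 and *RB1* at 0.24 and -0.14. Both were above 0 with si-GINS1_1 and below 0 with si-GINS1_2, although median centring turned the si-GINS1_2 values to 0.01 and 0.14. Their limma adjusted p-values were 0.523 and 0.834. The *CDK2* probe was dim, and its value with si-GINS1_1 was 0.45 with offset 10 and 0.64 on the scale of the scanner software.

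**Figure D1:**
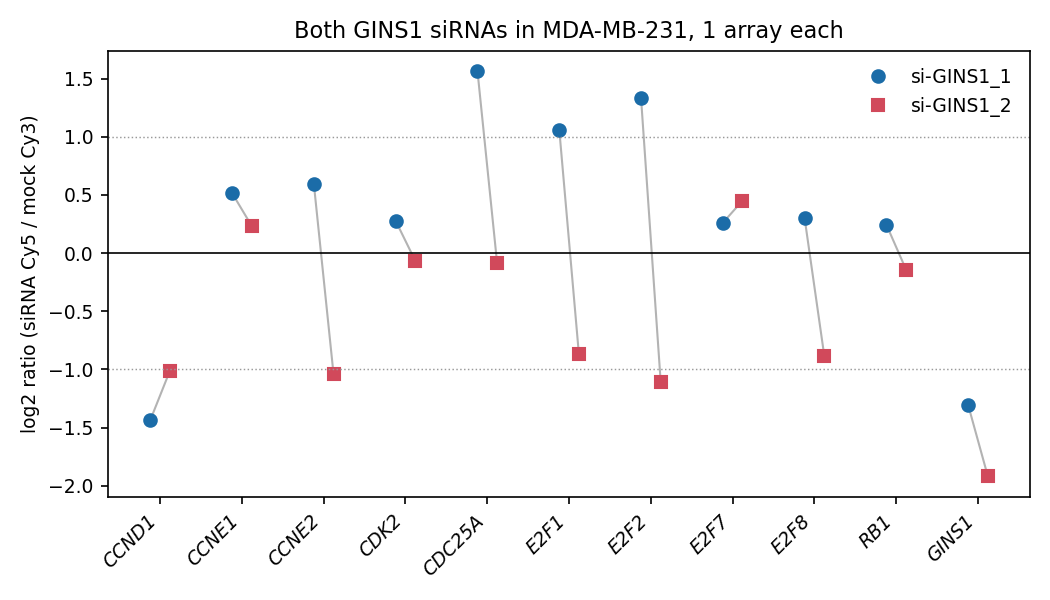
Log2 ratio of siRNA over mock (y axis) for each member and for *GINS1* (x axis), with 1 point per array (circle si-GINS1_1, square si-GINS1_2) and a line that joins the arrays of a gene. *CCND1* and *GINS1* lie at or below -1.01 with both siRNAs, whereas *E2F2* runs from 1.33 to -1.11.

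The siRNAs were compared member by member as the value with si-GINS1_1 minus the value with si-GINS1_2. With 1 array each, the difference had no replicate spread of its own, no test was run, and a difference of at least 1 log2 unit was counted. In 5 of 10 members it was at least 1: 2.44 for *E2F2*, 1.93 for *E2F1*, 1.65 for *CDC25A*, 1.63 for *CCNE2* and 1.18 for *E2F8*. Of all 27806 probes measured on both arrays 2.52% differed that far in the same direction, and 2.28% differed by at least 1 the other way, which no member did. The same 5 members passed under other background corrections and scalings, while *CCNE2* left the count when its probes were summarised by their median.

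For 3 members, *CCNE2*, *E2F1* and *E2F2*, the value was at least 0.5 with si-GINS1_1 and at most -0.5 with si-GINS1_2, against 0.719% of all probes. With a size of 1 in place of 0.5 this held for *E2F2* alone, against 0.036%, and 7 of 10 members were above 0 with the first siRNA and below 0 with the second, against 21.8%. *CCND1* was at or below -1 with both, as were 0.216% of all probes. These counts depended on the scaling. Median centring gave 4 members past 0.5 on both sides, 0 past 1 and 4 on opposite sides of 0. It put *CCND1* at -0.999 and -0.79, and taking the median of the probe over the arrays of the other lines off put it at -1.25 and -0.83. The median of the 10 members was 0.41 with si-GINS1_1 and -0.51 with si-GINS1_2, beside medians of 0.02 and 0.01 over all probes. *GINS1* itself was lower with si-GINS1_2, by 0.61 log2 units, and its part in the difference between the siRNAs was not tested.

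Genes that E2F factors are known to drive in S phase were split the same way between the siRNAs as *E2F1* and *E2F2*. All 18 genes of that list, which was chosen with earlier results of these data known, were below 0 with si-GINS1_2 (median -0.79). With si-GINS1_1 15 of 18 were above 0 (median 0.53). These 15 were thus above 0 with the first siRNA and below 0 with the second, against 21.8% of all probes. All 18 were higher with si-GINS1_1 than with si-GINS1_2, 12 of them by at least 1 log2 unit, against 2.52% of all probes. The median difference was 1.44 against 0.00 over all probes. Thymidine kinase *TK1* had the widest range, at 0.97 with si-GINS1_1 and -2.03 with si-GINS1_2. The replication initiation factor *CDC45* (0.75 and -1.63) and the methylation maintenance factor *UHRF1* (0.72 and -1.64) were likewise on both sides of the mock. *TYMS*, thymidylate synthase, was low with the second siRNA alone (0.03 and -1.55). The licensing factor *CDT1* lay at 1.36 and -0.56. *PCNA*, *RRM2* and *POLA1* were below 0 with both siRNAs. Past 0.5 on both sides were 6 of 18 genes, against 0.719% of all probes. Limma called 0 of 18 in either direction, against 3.63% of all probes called lower and 3.33% called higher. Some markers of other kinds also differed between the siRNAs. All 3 mesenchymal markers were lower with si-GINS1_1 (*VIM* -0.96 and 0.09, *ZEB1* -0.38 and 0.36, *FN1* -0.73 and 0.95). Of the 2 colorectal markers well above background in MDA-MB-231, *EPCAM* was higher with si-GINS1_1 (0.39 and -1.35) and *CDX1* lay at 0.14 and 0.05. No renal or breast marker differed by at least 1 log2 unit between the siRNAs. The 3 epithelial markers were below 0 with both siRNAs and did not differ in 1 direction. They were *CDH1* (-0.63 and -0.50), *KRT8* (-0.38 and -0.62) and *KRT18* (-0.13 and -0.19). Of these, *CDH1* was called lower (limma adjusted p 0.0163), a call lost in a fit of the si-GINS1 arrays alone. The part of these markers in the split was not tested.

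Of 8 CDK inhibitors 7 were tested and 3 fell, with both siRNAs below the mock. *CDKN2C*, an inhibitor of CDK4 and CDK6, lay at -1.13 with si-GINS1_1 and -1.41 with si-GINS1_2, with a mean of -1.27 ± 0.20 (SD, n = 2) and a limma adjusted p of 0.0153. *CDKN2D*, of the same family, lay at -0.57 and -0.53 (limma adjusted p 0.0163). *WEE1*, the kinase that opposes CDC25 phosphatases, lay at -0.67 and -0.79 (limma adjusted p 0.0129). *CDKN1C* was not called and lay at -1.12 with si-GINS1_1 and 0.01 with si-GINS1_2.

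Among 12 other cyclins, CDKs and phosphatases, limma tested 11 and called *CCNA2*, the S-phase cyclin A2, which lay at -0.69 and -0.73 (limma adjusted p 0.0151). *CKS1B*, a CDK-binding subunit, lay at 1.25 with si-GINS1_1 and -0.68 with si-GINS1_2 and was not called. Of 8 other pocket proteins, E2F and DP factors, 1 was called: *TFDP2*, a dimerization partner of E2F factors, rose to 0.38 and 0.51 (limma adjusted p 0.0219). Of 6 genes for the turnover of G1/S regulators 0 were called, and *SKP1*, a subunit of the SCF ubiquitin ligase, lay at -1.34 and -0.49 (limma adjusted p 0.0746). In all, 4 of the 50 genes tested from the 5 lists were called lower and 1 was called higher, against the 3.63% and 3.33% of all probes. All 5 calls were lost, as was that of *CCND1*, in a fit of the si-GINS1 arrays alone. The same held with a robust prior and variance trend, and with the log ratio of the scanner software. The call of *CDKN2D* was also lost with median centring, and that of *TFDP2* with offset 10.

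**Figure D2:**
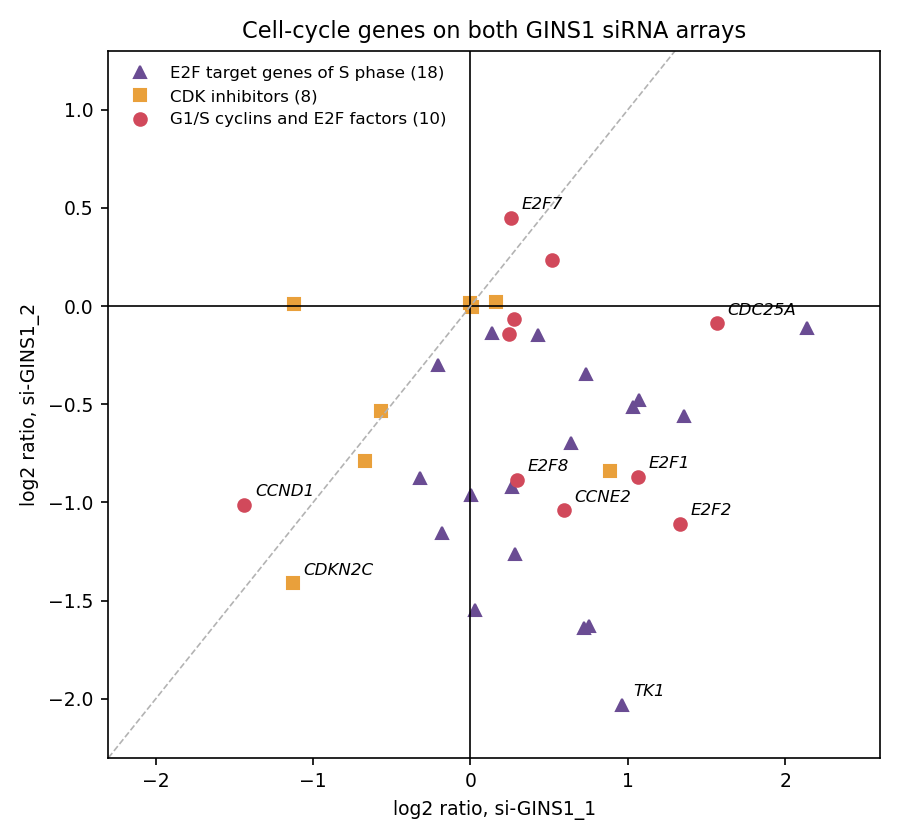
Log2 ratio with si-GINS1_2 (y axis) against si-GINS1_1 (x axis) for the 10 members (circles), 18 E2F target genes (triangles) and 8 CDK inhibitors (squares), 1 point per gene, with a dashed line where both arrays are equal. All E2F target genes lie below the horizontal zero line, whereas *CCND1* and *CDKN2C* lie at the lower left with both values below -1.

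Over all 8 arrays, the genes whose log2 ratios were most like those of *E2F2* were sought among 16305 other named entries well above background on all arrays. A transcript listed as ENST00000513713 had the highest Pearson correlation (0.992), with values from -0.24 to 0.13. It was followed by *TRAIP* (0.989), a ubiquitin ligase of stalled replication forks, *NAA16* (0.989), *LRRC75A* (0.988) and *RNASEH2A* (0.987), the catalytic subunit of ribonuclease H2. *TRAIP* lay at 0.82 with si-GINS1_1 and -0.78 with si-GINS1_2, and *RNASEH2A* at 0.64 and -0.70. The likeness is a description over 8 arrays that share a slide, and the siRNA arrays hold the lowest and highest values of each of these genes.

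In HCT116 the question was whether either strand of the miR-490 duplex moved the members. With 1 array per strand no test was run, and no member was at or past 1 in size with either strand, against 0.963% of probes at or below -1 and 0.265% at or above 1 with miR-490-5p, and 0.578% and 0.346% with miR-490-3p. The members farthest from the mock were 2 with miR-490-3p, *CDC25A* at 0.78 and *CCNE2* at 0.63, and 3.64% of all probes were at or above 0.5 on that array. No member was at or below -0.5 there, as were 3.37% of all probes. That count depended on the processing. *CDK2* passed -0.5 on that array with offset 10 (-0.56), no background correction (-0.502) and the log ratio of the scanner software (-0.72). With median centring it did not (-0.25). With miR-490-5p *CDC25A* lay at -0.05 and *CCNE2* at 0.29. *CDC25A* was thus near the mock with one strand and above it with the other, and it passed 1 with miR-490-3p, at 1.06, on the scale of the scanner software.

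*CCNE1* lay at -0.29 for miR-490-5p but at 0.42 for miR-490-3p, on opposite sides of the mock. *E2F1* likewise lay at -0.15 and 0.40. *CCND1* was below the mock with both strands, at -0.33 and -0.41. With the median of its probe over the arrays of the other lines taken off, *CCND1* lay at -0.14 and -0.23 in HCT116.

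*E2F2* was the activating factor that lay lower with miR-490-3p (-0.24) than with miR-490-5p (0.19). The repressor *E2F7* was at 0.19 with both strands, and *E2F8* lay at -0.16 and 0.03. *CDK2* (-0.13 with miR-490-5p, -0.31 with miR-490-3p) and *RB1* (0.05 and -0.31) lay lower with miR-490-3p.

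As the value with miR-490-3p minus that with miR-490-5p, the difference was 0.83 for *CDC25A*, 0.70 for *CCNE1* and 0.54 for *E2F1*. These 3 of 10 members were at least 0.5 higher with miR-490-3p, against 6.27% of all 26885 probes, and 0 of 10 were at least 0.5 lower, against 4.31%. No member differed by 1. Of the 18 E2F target genes 16 were higher with miR-490-3p. Their median difference was 0.24 against 0.00 over all probes, and 15 of 18 lay below 0 with miR-490-5p. *CDC45* lay at -0.86 with miR-490-5p but at 0.05 with the other strand, and *TYMS* at -0.64 and 0.15. Outside the members, *CDK6*, a partner kinase of D-type cyclins, was high with both strands (1.62 for miR-490-5p, then 1.73 for miR-490-3p). It was also above the mock on the miR-139 arrays (0.02 to 0.63) and with si-GINS1_1 (0.80), and lay at -0.70 with si-GINS1_2. Without a dye swap, any part of its rise common to the arrays cannot be told apart from dye bias. *TFDP2* lay at -0.63 and 0.43.

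In the renal lines no member passed the test with either strand of miR-139. All 40 values of the 10 members on the 4 arrays were between -0.21 and 0.23. Limma called 0 of 10 members for miR-139-5p, against 0.0129% of 23295 probes called lower and 0 called higher, with 591 probes at an unadjusted p under 0.05. It called 0 of 10 members and 0 of 22819 probes for miR-139-3p, with 1014 at an unadjusted p under 0.05. The lowest unadjusted p of a member was 0.589 in the miR-139-5p group and 0.154 in the miR-139-3p group, and each member had an adjusted p of 1.0 by limma in both groups. The mean log2 ratio of a member ran from -0.06 to 0.19 with miR-139-5p and from -0.19 to 0.10 with miR-139-3p. The error in these tests also held the spread between the siRNAs. For *E2F2* with miR-139-5p the SD was 0.02 (n = 2) and the limma standard error 0.548.

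*CCND1* was nearest to a shift with miR-139-3p, at -0.16 in A498 and -0.21 in 786-O, and lay at 0.01 and -0.13 with miR-139-5p. With the median of its probe over the arrays of the other lines taken off, a step that also removes any shift those arrays share, the values with miR-139-3p were 0.21 and 0.16, so the direction depended on that step. *E2F2* was above the mock on all 4 arrays, at 0.20 and 0.17 with miR-139-5p and 0.03 and 0.12 with miR-139-3p (A498, then 786-O), although the same correction turned the value with miR-139-3p in A498 to -0.11. *E2F7* lay at 0.23 with miR-139-3p in A498 and between -0.12 and -0.05 on the 3 other renal arrays. The values of dim probes depended on the background correction and normalization. *CDC25A* with miR-139-5p in A498 was 0.14, but 0.36 with offset 10 and 0.84 on the scale of the scanner software, and *E2F8* with miR-139-3p in A498 was 0.06, but 0.17 and 0.64.

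The strands of miR-139 were also compared with each other. The member differences, miR-139-3p minus miR-139-5p, ran from -0.12 to 0.13, and limma called 0 of 10 members and 0 of 22188 probes, with 150 probes at an unadjusted p under 0.05. The lowest unadjusted p of a member in that contrast was 0.466.

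**Figure D3:**
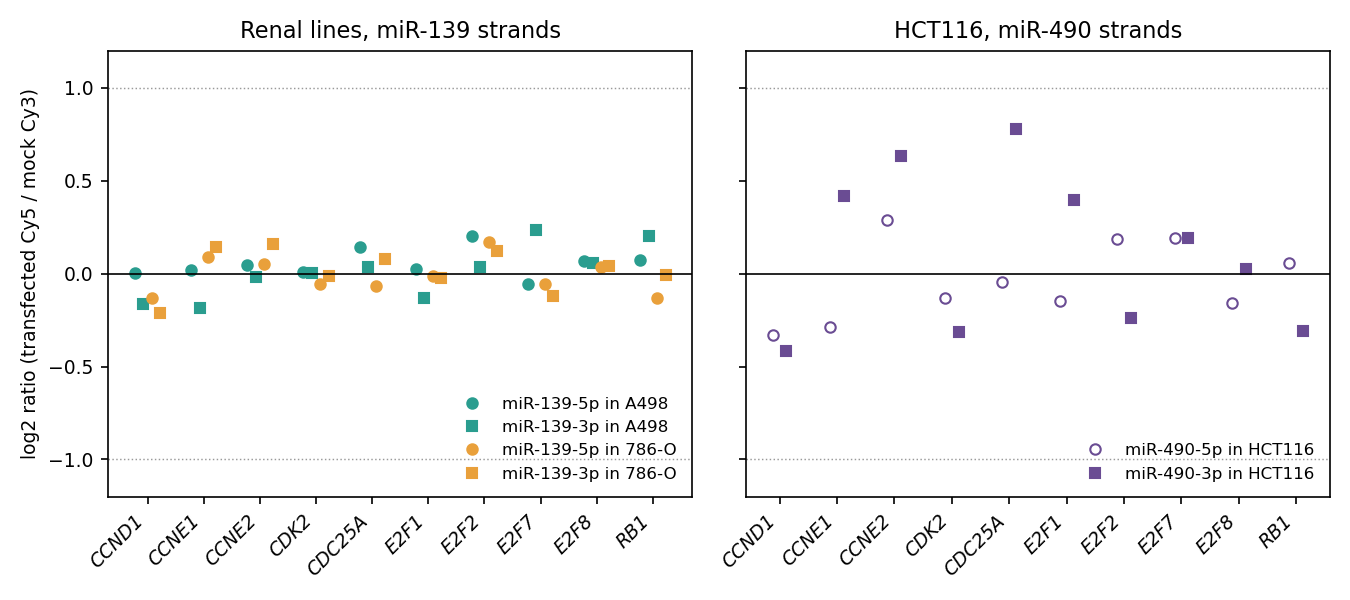
Log2 ratio of transfected over mock signal (y axis) for the 10 members (x axis) on the 4 miR-139 arrays of the renal lines (left) and the miR-490 arrays of HCT116 (right), 1 point per array. All points of the left panel lie between -0.21 and 0.23, and *CDC25A* with miR-490-3p is the highest point of the right panel, at 0.78.

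The mock channel gave the level of each member in the 4 untransfected lines, as normalized log2 Cy3 signal with 2 channels per line. Whether both channels of a line carried 1 extract is not stated, so their gap measures technical spread at least, and no test was run. The widest gap of a pair over the members was 0.17. A level is compared here between lines for 1 probe and not between probes, except to show the floor of the scale. In 6 of 10 members the line means spanned at least 1 log2 unit, against 26.6% of all probes.

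*CCNE1* spanned 1.80, or 3.48-fold. It was highest in HCT116 (9.85 and 9.74), then A498 (9.22 and 9.15), MDA-MB-231 (8.50 and 8.56) and 786-O (7.98 and 8.02), and no neighbours in that order overlapped. *CCNE2* had another order, with the highest level in MDA-MB-231 (7.61 and 7.70), followed by 786-O (7.24 and 7.23) and HCT116 (6.91 and 6.94), and the lowest in A498 (6.05 and 6.08). A498 was therefore second for one E-type cyclin and last for the other.

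*E2F1* was highest in MDA-MB-231 (8.23 and 8.20) and lowest in A498 (6.42 and 6.45), with 786-O at 7.37 and 7.35 and HCT116 at 6.996 and 6.995. *E2F2* was highest in HCT116 (8.34 and 8.40) and lowest in A498 (6.75 and 6.58), and its levels in 786-O (7.93 and 8.05) and MDA-MB-231 (7.87 and 7.86) did not differ beyond the widest gap of a pair. A498 had the lowest level of both activating factors.

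*E2F7* was highest in 786-O (9.91 on both channels) and MDA-MB-231 (9.65 and 9.66) and lower in A498 (8.55 and 8.60) and HCT116 (8.18 and 8.12). *E2F8* followed the order of *E2F1*, from MDA-MB-231 (7.14 and 7.12) through 786-O (6.90 on both channels) and HCT116 (6.68 and 6.60) to A498 (6.12 and 5.95). The repressors thus differed in their lowest line, HCT116 for *E2F7* and A498 for *E2F8*.

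The 4 remaining members spanned less than 1 log2 unit. *CDC25A* spanned 0.96, from HCT116 (7.10 and 7.02) to A498 (6.06 and 6.13). *CCND1* spanned 0.90, from 786-O (9.30 on both channels) to A498 (8.41 and 8.38). *RB1* spanned 0.60 and was highest in MDA-MB-231 (9.37 and 9.36) and A498 (9.37 and 9.28), which did not differ beyond the gap of a pair. *CDK2* spanned 0.31, the narrowest of the members, and in its order HCT116, 786-O, MDA-MB-231, A498 the last 3 lines did not differ from one another, neighbour to neighbour, beyond the gap of a pair. A498 had the lowest mean for 7 members, *CCND1*, *CCNE2*, *CDK2*, *CDC25A*, *E2F1*, *E2F2* and *E2F8*, for *CDK2* not beyond the gap of a pair. The share of all probes lowest in A498 was not counted. In A498 the means of *CCNE2* (6.06), *CDC25A* (6.10), *E2F8* (6.03) and *CDK2* (6.23) lay near the floor of the scale. *VIL1* and *KRT5*, not well above background there, read 5.74 and 5.73.

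**Figure D4:**
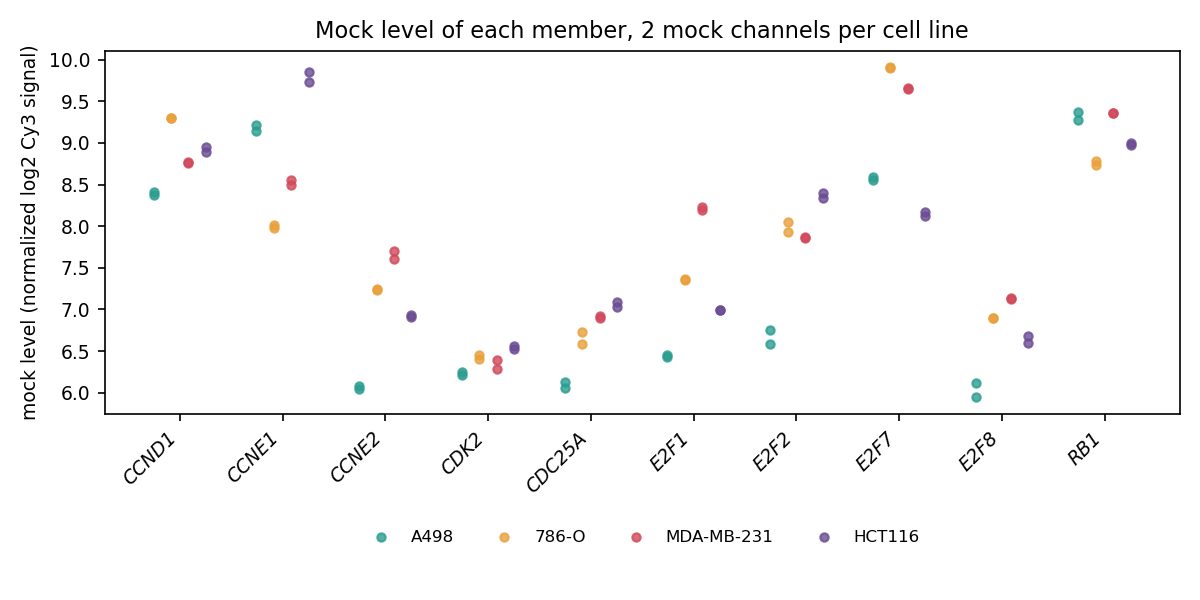
Mock level as normalized log2 Cy3 signal (y axis) of the 10 members (x axis), with 2 points per cell line, 1 for each mock channel, and colours for the lines. The points of a line lie within 0.17 of each other, whereas the lines span from 0.31 (*CDK2*) to 1.80 (*CCNE1*).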

How the data were processed

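RNA of 8 transfections in 4 human cancer cell lines was measured against mock RNA on 2-colour Agilent arrays of 1 slide, with no dye swap. The authors processed the scan with Agilent Feature Extraction 11.5.1.1, per the file headers. The deposited intensity columns hold mean spot brightness and local background in each channel, not normalized, and the deposited log10 ratio of Cy5 over Cy3 was made by the scanner software and is identical to that in the value table. The members, gene lists and tests were chosen with earlier results of these data known. Each array held 62976 spots, 2075 of them control spots, and 112 to 194 outlier spots per array were left out. On each array 24986 to 29690 probes passed the scanner's flag of being well above background in 1 channel or both, and the number of arrays limits the precision. Probes were named by the array annotation, with positions on hg19, and exon boundaries were not used here.

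Background was corrected with normexp (offset 50) in limma 3.58.1 under R 4.3.3, followed by loess within each array, averaging of a probe's spots, and a single limma fit (8 arrays, 5 coefficients for the groups, 3 degrees of freedom left). Each ratio was tested against 0, which leaves out the spread of the mock. Probes that passed that flag on every array of a group were tested, with Benjamini-Hochberg adjustment over all of them and a threshold of 0.05. Single arrays and their differences were described by a size of 1 log2 unit, with 0.5 as a smaller size. The mock level was the Cy3 signal after loess and Aquantile scaling. All 10 members were named, with *GINS1*, at most 6 genes per list that were called or past 1 on an array, and the 5 genes most like the member of widest range (1 gene the rule named is not reported here); the marker genes come from the marker lists, and *RRM2* and *POLA1* were named after their values were seen. The miR-139 arrays pair by cell line according to the labels, and the deviations of same-line arrays had a correlation of 0.0753. Scripts were tested on simulated data, and summaries used Python 3.11.15, numpy 2.4.6, pandas 2.3.3 and matplotlib 3.10.9 (in R, version 1.17.8 of data.table).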

Additional observations from a re-analysis of the deposited data

Results flagged for a closer look

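*RB1* and *CDK2* were on opposite sides of 0 in the renal lines, and the differences were not tested. In A498 *RB1* was 0.07 (miR-139-5p) and 0.21 (miR-139-3p), whereas 786-O gave -0.13 and -0.01. The line means differed by 0.206. Median centring turned the miR-139-3p value in 786-O to 0.145 for *RB1* and 0.02 for *CDK2*. With dye bias taken off that value was 0.02 for *CDK2*, so the opposite sides depended on the scaling. In A498 *CDK2* was 0.01 and 0.0013, whereas 786-O gave -0.06 and -0.01. The line means differed by 0.0381, under the SD of mock differences in either line (0.102 in A498, 0.0800 in 786-O).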

How the results depend on the processing

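The count of probes called for si-GINS1 (1935) became 75 with the scanner log ratio, 2975 with median centring, 711 with dye bias taken off, 0 with only the arrays compared, 0 with a robust prior and variance trend, and 10518 when the mock of a line was a random block. It ran from 6666 to 9392 when 1 siRNA was left out, where the lone array is assumed to vary like the other groups. The count of members called (1) became 0 with the scanner log ratio, 0 with only the arrays compared, 0 with the variance trend, 2 with median centring (*E2F7* added) and 4 with the random block, and ran from 5 without si-GINS1_1 to 8 without si-GINS1_2. Median centring moved the median of all probes from 0.02 to 0.16 with si-GINS1_1. For miR-139-5p the 3 calls became 7 with the scanner log ratio, 6 with offset 10, 6 with only the arrays compared, and 0 with median centring, dye bias taken off, no filter, both channels above background, gene medians, the variance trend or the random block, and were 0 to 0 when 1 array was left out. For miR-139-3p the 0 calls became 13 with the scanner log ratio, 6 with offset 10, 4 with no background correction and 7 with only the arrays compared. No member was called for either strand under any of these. In HCT116 the count of members past 1 (0) became 1 (*CDC25A*) with the scanner log ratio for miR-490-3p and for the difference of the strands, and 1 for that difference with offset 10.

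The si-GINS1 mean changed sign for *CCNE2* with median centring (0.0663), and for *E2F2* with the scanner log ratio (-0.0495), offset 10 (-0.0188), no background correction (-0.0049) and dye bias taken off (-0.0374). Leaving out 1 siRNA gave -1.04 to 0.59 for *CCNE2*, -0.0675 to 0.28 for *CDK2*, -0.0860 to 1.57 for *CDC25A*, -0.87 to 1.06 for *E2F1*, -1.11 to 1.33 for *E2F2*, -0.88 to 0.30 for *E2F8* and -0.14 to 0.24 for *RB1*. The replicate block by cell line was run for the strand contrast, which stayed at 0 calls, members included. The slide as a block was not run, since all arrays were on 1 slide. The count of members with a mock range of at least 1 was 6 with quantile or 75th percentile scaling, 7 with offset 10 and 5 with gene medians. Without a dye swap, a probe's dye bias cannot be told apart from a shift common to all transfections, and 1 array per siRNA or miR-490 strand leaves the error of their differences unknown.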
